A study of Mus musculus with 32 samples.

Results

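The transcripts of 10 macrophage cytokines were followed in bone marrow-derived macrophages (BMDMs) after induced loss of Trex1. The 10 genes, Tnf, Il1a, Il1b, Il1rn, Il6, Il10, Il12b, Il15, Il18 and Il27, were taken from a fixed list of symbols, and each matched 1 of the 54281 gene identifiers of the count table. They were divided by their textbook regulation into 3 interferon-linked cytokines (Il15, Il18 and Il27), 5 NF-κB-linked cytokines (Tnf, Il1a, Il1b, Il6 and Il12b) and 2 anti-inflammatory or antagonist cytokines (Il10 and Il1rn). BMDMs came from R26-CreERT2 mice with either 2 floxed Trex1 alleles (Trex1 FL/FL) or 1 floxed and 1 wild-type allele (Trex1 WT/FL). All cells thus carried at least 1 floxed Trex1 allele and the CreERT2 recombinase, which is expressed from the ubiquitous Rosa26 locus and becomes active when 4-hydroxytamoxifen (4-OHT) binds it. Cells either were left untreated or received 4-OHT at 2 µg/ml over 22 h, and they were harvested on days 1, 2, 3 and 4 after treatment, with 2 libraries for each of the 16 combinations. The age of the mice that gave bone marrow is not given in the sources used here. No label ties a library to an animal, culture or batch, so the p-values measure the spread between these libraries, which may be technical. In bulk RNA, fewer cells of a type and less RNA per cell cannot be told apart.

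TREX1 is an exonuclease that degrades DNA in the cytosol. When it is missing, DNA can activate the sensor cGAS and the adaptor STING, which signal through IRF3 to type I interferon genes and through NF-κB to inflammatory genes. Signals from interferon receptors then reach interferon-stimulated genes, among which macrophage cytokines such as Il15, Il18 and Il27 are counted, while Tnf, Il1a, Il1b, Il6 and Il12b are classical targets of NF-κB. The comparison therefore asks how far each class of cytokine moved, in which genotype, and on which day.

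The RefSeq promoter table for build GRCm38.p6 held entries for 7 of the 10 genes. The 250 bases before the annotated start are shown for 4 of them. Tnf and Il1b were chosen as the NF-κB-linked cytokines with the most reads, Il6 because it held the single match to the NF-κB consensus, and Il18 because it was the interferon-linked cytokine with an entry. Capitals mark matches to the searched motifs, read on either strand. The Tnf sequence is chr17:35202008-35202257 on the minus strand, Il1b is chr2:129371140-129371389 on the minus strand, Il6 is chr5:30012864-30013113 on the plus strand, and Il18 is chr9:50554450-50554699 on the plus strand.
Tnf: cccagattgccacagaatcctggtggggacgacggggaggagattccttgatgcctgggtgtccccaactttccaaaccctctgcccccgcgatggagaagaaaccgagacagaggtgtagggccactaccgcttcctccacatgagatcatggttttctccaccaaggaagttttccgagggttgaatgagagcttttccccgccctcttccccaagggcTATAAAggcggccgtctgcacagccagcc
Il1b: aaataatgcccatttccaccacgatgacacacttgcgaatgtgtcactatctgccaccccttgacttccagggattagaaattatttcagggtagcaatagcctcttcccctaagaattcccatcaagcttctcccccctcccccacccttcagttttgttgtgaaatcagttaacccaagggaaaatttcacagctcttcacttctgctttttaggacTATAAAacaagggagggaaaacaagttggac
Il6: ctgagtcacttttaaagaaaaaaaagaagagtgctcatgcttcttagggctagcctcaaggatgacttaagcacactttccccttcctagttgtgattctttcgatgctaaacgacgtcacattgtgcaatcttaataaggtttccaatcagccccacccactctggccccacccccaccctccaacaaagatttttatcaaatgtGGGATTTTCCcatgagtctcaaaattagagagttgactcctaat
Il18: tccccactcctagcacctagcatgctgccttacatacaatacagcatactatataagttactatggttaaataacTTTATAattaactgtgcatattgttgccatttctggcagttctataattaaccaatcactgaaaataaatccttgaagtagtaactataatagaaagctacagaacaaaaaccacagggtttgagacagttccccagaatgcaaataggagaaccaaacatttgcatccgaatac
In Il6, GGGATTTTCC, a match to the NF-κB consensus, lay 44 bases before the start, and 7.25% of the 32851 promoters in the table held such a match on either strand. The TATA box TATAAA stood 29 bases before the start in Tnf, 31 in Il1b and 32 in Il1a, and a match on the opposite strand stood 175 bases before the start in Il18. Of all promoters, 12.4% held TATAAA. Neither the core of the interferon-stimulated response element (GAAA, any 2 bases, GAAA), found in 2.98% of promoters, nor the core of the gamma-activated site, TTCNNNGAA, found in 7.02%, was in these windows for Tnf, Il1a, Il1b, Il1rn, Il6, Il12b or Il18. Absence from a window of 250 bases says only that these letters are not there. No promoter entry was at hand for Il10, Il15 and Il27.

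All 10 genes are annotated as protein-coding in GRCm39. Tnf (ENSMUSG00000024401.14) lies on chromosome 17 from 35418357 to 35420983, Il15 (ENSMUSG00000031712.10) on chromosome 8 from 83054226 to 83129874, Il18 (ENSMUSG00000039217.13) on chromosome 9 from 50466081 to 50493633, and Il27 (ENSMUSG00000044701.5) on chromosome 7 from 126188181 to 126194209. Il10 (ENSMUSG00000016529.5) lies on chromosome 1 from 130947581 to 130952711, Il6 (ENSMUSG00000025746.11) on chromosome 5 from 30218112 to 30224979, and Il12b (ENSMUSG00000004296.14) on chromosome 11 from 44290808 to 44305505. The 3 IL-1 family genes of chromosome 2 are Il1a (ENSMUSG00000027399.1, 129140291 to 129152098), Il1b (ENSMUSG00000027398.13, 129206490 to 129213059) and Il1rn (ENSMUSG00000026981.15, 24226865 to 24241506).

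Levels are given as CPM, the count of a gene relative to the total of its library, after scaling with the TMM factors of edgeR. Per kilobase of the canonical transcript, the median level over the 32 libraries was highest for Tnf (16.7 CPM per kb), followed by Il1rn (9.83) and Il18 (6.76). Il15 (3.63 CPM per kb), Il10 (3.29) and Il1b (3.24) followed close together, then Il27 (1.10). The levels of neighbours in this order overlapped between libraries, since each of these genes varied at least 2.67-fold between its highest and lowest group mean. Il6 (0.136 CPM per kb), Il1a (0.0921) and Il12b (0.00873) were near the limit of detection. Their highest counts in any library were 32 for Il6, 49 for Il1a and 11 for Il12b, and Il12b had 0 counts in 14 of the 32 libraries. After the filter on low counts 9 of the 10 genes were tested, all but Il12b.

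**Figure D1:**
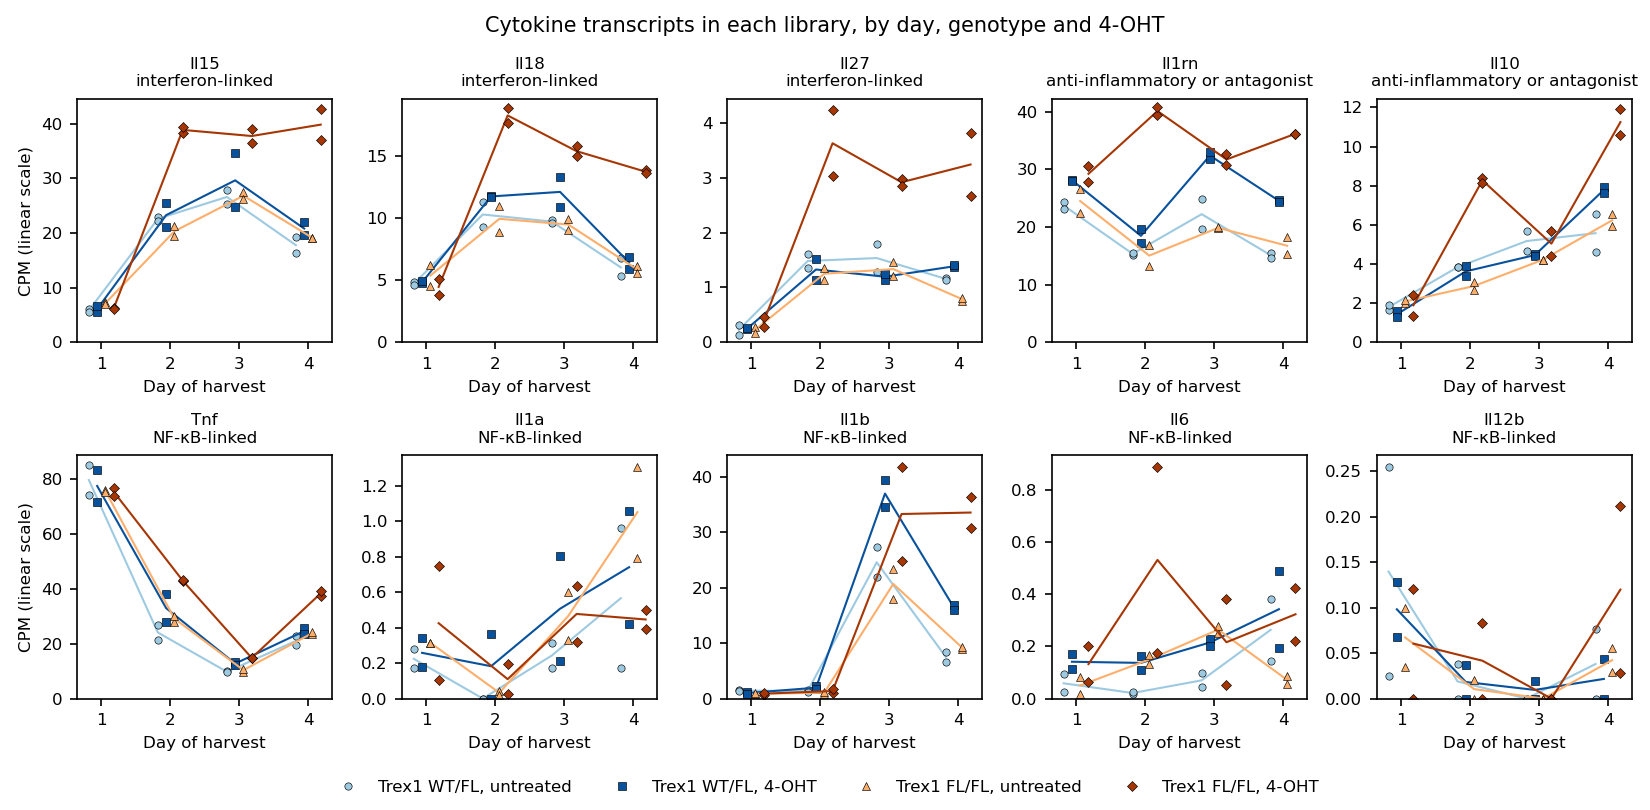
Level of each cytokine in CPM on a linear axis from 0 against the day of harvest, with 1 symbol for each of the 32 libraries and lines through the means of the 2 libraries of a group. On day 2 the 2 libraries of Trex1 FL/FL BMDMs exposed to 4-OHT lie above all other libraries of that day for Il15, Il18, Il27, Il1rn, Il10 and Tnf, whereas Il1b rises in all groups on day 3.

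Totals ranged from 35120505 to 63760884 counts per library, and 15257 genes were tested. In Trex1 FL/FL BMDMs exposed to 4-OHT, Trex1 itself was at 0 in both libraries of days 1, 3 and 4, while the day 2 libraries held 14 and 9 counts. In Trex1 WT/FL BMDMs it stood at 15.0 and 12.2 CPM on day 1 after 4-OHT and at 32.0 and 28.6 CPM untreated, so that the control cells also had less Trex1 RNA after 4-OHT. All stretches of 31 bases in the Trex1 transcript also occur in Atrip, whereas the cytokines shared between 0% (Tnf, Il6 and Il10) and 10.7% (Il1a) of theirs with other genes. For Il27, 7.90% occur in Apobr, so that counts of both may be mixed to that extent. All 7 macrophage markers were detected, with a summed level of 15024 to 47900.5 CPM. The 6 neutrophil markers summed to 3.27 to 13.9 CPM, the 5 dendritic cell markers to 0.668 to 2.67 CPM, the 4 B cell markers to 1.31 to 6.58 CPM and the 4 fibroblast markers to 0 to 1.96 CPM. The 5 T and NK cell markers stayed at or below 0.121 CPM, with Ncr1 at 0, and the 4 mast cell and basophil markers at or below 0.198 CPM, with Mcpt8 and Fcer1a at 0.

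On day 1 no cytokine was called as different between the genotypes after 4-OHT. None of the 9 tested genes passed an adjusted p of 0.05 in edgeR's quasi-likelihood test, used for every adjusted p given here, and 0 reached an unadjusted p below 0.05. DESeq2 also called 0. Over all tested genes 0.0197% were called. Il15, which sustains NK cells and memory T cells, stood at 6.36 and 6.11 CPM in Trex1 FL/FL and at 5.58 and 6.60 CPM in Trex1 WT/FL libraries. Il27, which encodes the p28 subunit of IL-27, stood at 0.459 and 0.282 CPM against 0.237 and 0.257 CPM. The libraries of both genotypes overlapped for Il15 but not for Il27. With 2 libraries against 2, an exact permutation test cannot give a two-sided p below 0.33. Whether libraries overlap is therefore only described throughout, and the share of all genes without overlap is not given. The 4-OHT effect was called for 0 of 9 cytokines in Trex1 FL/FL BMDMs (1 at an unadjusted p below 0.05, 0.0131% of all genes called) and for 0 of 9 in Trex1 WT/FL BMDMs (1 unadjusted, 0.00655% of all genes). The difference between both effects was called for 0 of 9 (0 unadjusted, 0.0131% of all genes).

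From day 2, cytokines of the interferon-linked class were higher in 4-OHT-treated Trex1 FL/FL than in 4-OHT-treated Trex1 WT/FL BMDMs. Il15 stood at 38.2 and 39.5 CPM against 25.5 and 21.0 CPM on day 2, at 39.0 and 36.5 CPM against 24.7 and 34.5 CPM on day 3, and at 42.7 and 37.0 CPM against 19.7 and 21.9 CPM on day 4. Both Trex1 FL/FL libraries were thus above both controls on each of these days. Il15 was 1.67-fold higher on day 2 (log2 fold change 0.74, SE 0.12, edgeR adjusted p = 4.88e-05) and 1.91-fold higher on day 4 (0.94, SE 0.12, edgeR adjusted p = 5.88e-07). The difference on day 3 was smaller (0.35, SE 0.12, edgeR adjusted p = 0.0374), and it rested on single libraries. Without library 1 of the Trex1 WT/FL cells it was 0.13 (edgeR adjusted p = 0.602), without library 1 of the Trex1 FL/FL cells 0.30 (0.212), and without library 2 of the Trex1 FL/FL cells 0.40 (0.0717). With only the groups compared in the fit it was 0.36 (0.253). Library numbers only name the libraries of a group. Some reads of Il15 may be counted for another gene or the reverse, as 4.10% of its stretches of 31 bases also occur in 9530004M14Rik.

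Il18, the precursor of a cytokine that is released after cleavage by caspase-1, followed a similar course. It stood at 18.8 and 17.7 CPM in Trex1 FL/FL against 11.8 and 11.7 CPM in Trex1 WT/FL libraries on day 2, at 15.8 and 15.0 CPM against 10.9 and 13.3 CPM on day 3, and at 13.8 and 13.6 CPM against 5.94 and 6.90 CPM on day 4. The libraries of both genotypes did not overlap on these days. Il18 was 1.56-fold higher on day 2 (log2 fold change 0.64, SE 0.15, edgeR adjusted p = 0.00355) and 2.14-fold higher on day 4 (1.10, SE 0.15, edgeR adjusted p = 2.60e-06). On day 3 the log2 fold change of 0.35 did not pass (SE 0.15, edgeR adjusted p = 0.115).

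Il27 had the largest genotype difference of the 3 interferon-linked genes on each of these days, at a low level. Its libraries held 4.23 and 3.02 CPM against 1.52 and 1.13 CPM on day 2, 2.98 and 2.86 CPM against 1.14 and 1.25 CPM on day 3, and 3.82 and 2.66 CPM against 1.37 and 1.41 CPM on day 4. Both Trex1 FL/FL libraries were above both controls on each day. The differences were 2.74-fold on day 2 (log2 fold change 1.45, SE 0.31, edgeR adjusted p = 0.00143), 2.44-fold on day 3 (1.28, SE 0.31, edgeR adjusted p = 0.00367) and 2.34-fold on day 4 (1.23, SE 0.31, edgeR adjusted p = 0.00301). Each lost its call without 1 library, standing at 1.25 on the log2 scale (edgeR adjusted p = 0.0519) without Trex1 WT/FL library 2 on day 2, 1.22 (0.0524) without Trex1 WT/FL library 1 on day 3, and 0.94 (0.0812) without Trex1 FL/FL library 1 on day 4.

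Both anti-inflammatory or antagonist genes were called higher on days 2 and 4 and not on day 3. Il1rn, which encodes the IL-1 receptor antagonist, stood at 39.4 and 40.8 CPM in Trex1 FL/FL against 17.2 and 19.7 CPM in Trex1 WT/FL libraries exposed to 4-OHT on day 2. This was a 2.17-fold difference (log2 fold change 1.12, SE 0.11, edgeR adjusted p = 2.42e-08), the smallest adjusted p of any cytokine on that day. On day 3 the values were 32.7 and 30.7 CPM against 31.8 and 33.0 CPM, which overlapped (log2 fold change -0.031, 95% interval -0.25 to 0.19, edgeR adjusted p = 0.896). On day 4 they were 36.2 and 36.1 CPM against 24.7 and 24.3 CPM, 1.47-fold higher (0.56, SE 0.11, edgeR adjusted p = 0.000167). The 4-OHT-treated Trex1 WT/FL libraries were at their highest on day 3, when the Trex1 FL/FL libraries were at their lowest of the 3 days.

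Il10, which encodes an anti-inflammatory cytokine, stood at 8.42 and 8.13 CPM against 3.88 and 3.38 CPM on day 2, at 5.67 and 4.41 CPM against 4.49 and 4.42 CPM on day 3, and at 11.9 and 10.6 CPM against 7.92 and 7.65 CPM on day 4. The groups overlapped on day 3 and not on days 2 and 4. It was 2.28-fold higher on day 2 (log2 fold change 1.19, SE 0.20, edgeR adjusted p = 7.45e-05), not called on day 3 (0.17, 95% interval -0.24 to 0.58, edgeR adjusted p = 0.632), and 1.44-fold higher on day 4 (0.53, SE 0.19, edgeR adjusted p = 0.0352). The call on day 4 was lost whichever library was left out. Its value was then 0.55 (0.114) and 0.51 (0.142) without libraries 1 and 2 of the Trex1 WT/FL cells and 0.44 (0.22) and 0.61 (0.0567) without libraries 1 and 2 of the Trex1 FL/FL cells (edgeR adjusted p in parentheses).

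Of the NF-κB-linked cytokines, Tnf and Il1b were well measured. Tnf, a main mediator of inflammation, stood at 42.7 and 43.2 CPM in Trex1 FL/FL against 27.9 and 38.0 CPM in Trex1 WT/FL libraries exposed to 4-OHT on day 2, at 14.9 and 14.6 CPM against 13.3 and 12.1 CPM on day 3, and at 37.4 and 39.2 CPM against 25.6 and 23.5 CPM on day 4. The groups did not overlap on these 3 days. The difference was 1.56-fold on day 4 (log2 fold change 0.64, SE 0.12, edgeR adjusted p = 0.000115). It was smaller on day 2 (0.38, SE 0.11, edgeR adjusted p = 0.0263) and not called on day 3 (0.21, SE 0.12, edgeR adjusted p = 0.267). The call on day 2 was lost without library 1 of the Trex1 WT/FL cells (0.18, edgeR adjusted p = 0.468), without library 1 of the Trex1 FL/FL cells (0.39, 0.105) and without library 2 of the Trex1 FL/FL cells (0.37, 0.126). It was also lost with only the groups compared in the fit (0.39, 0.172).

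Il1b, the precursor of IL-1β, was called as different between the genotypes on day 4 and was not called before. It stood at 0.990 and 1.72 CPM against 2.20 and 1.72 CPM on day 2, at 24.7 and 41.8 CPM against 39.3 and 34.6 CPM on day 3, and at 36.3 and 30.7 CPM against 16.8 and 15.9 CPM on day 4. The groups overlapped until day 3. On day 4 Il1b was 2.05-fold higher in Trex1 FL/FL BMDMs (log2 fold change 1.03, SE 0.23, edgeR adjusted p = 0.00135). The values on day 2 (-0.54, 95% interval -1.22 to 0.15, edgeR adjusted p = 0.365) and day 3 (-0.15, -0.61 to 0.31, 0.729) leave differences in both directions possible.

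Il1a, Il6 and Il12b were near the limit of detection, and no genotype difference was detectable at this depth. Il6, which encodes an acute-phase cytokine, had 7 and 32 counts in 4-OHT-treated Trex1 FL/FL against 5 and 9 counts in Trex1 WT/FL libraries on day 2, and 8 and 14 against 29 and 9 counts on day 4. Il1a, the second IL-1 receptor agonist, had 1 and 7 counts against 0 and 20 on day 2 and 18 and 13 against 25 and 49 on day 4. The genotype differences did not pass the test, with edgeR adjusted p of 0.194 (Il6) and 0.779 (Il1a) on day 2 and of 0.956 and 0.647 on day 4. Il12b, the shared p40 subunit of IL-12 and IL-23, had 0 and 3 counts against 0 and 2 on day 2, 0 and 0 against 1 and 0 on day 3, and 1 and 7 against 0 and 2 on day 4. Taking 3 counts per library as the limit of a count of 0, the Trex1 FL/FL mean on day 4 was 2.07-fold this limit in the controls. It rests on the library with 7 counts, as the other held 1, and gives no lower bound for a difference. This limit covers counting error only.

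By class, the interferon-linked cytokines were called higher after 4-OHT in Trex1 FL/FL BMDMs in 3 of 3 genes on day 2, 2 of 3 on day 3 and 3 of 3 on day 4. The corresponding counts were 1, 0 and 2 of the 4 tested NF-κB-linked genes, and 2, 0 and 2 of the 2 anti-inflammatory or antagonist genes. No cytokine was called lower. In total 6 of 9 were called on day 2, 2 of 9 on day 3 and 7 of 9 on day 4, when 12.6%, 19.0% and 30.2% of all tested genes were called in either direction. The median log2 fold change of the 9 genes was 0.74, 0.17 and 0.64 on days 2, 3 and 4, and that of all genes was -0.01, -0.01 and -0.04. The difference between the classes was not tested, since genes are not replicates and 2 of the 4 NF-κB-linked genes were hardly detected. The members and their classes were also chosen with earlier results of these data known. No genotype difference reached an adjusted p below 0.01 together with an absolute log2 fold change above 1.5.

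**Figure D2:**
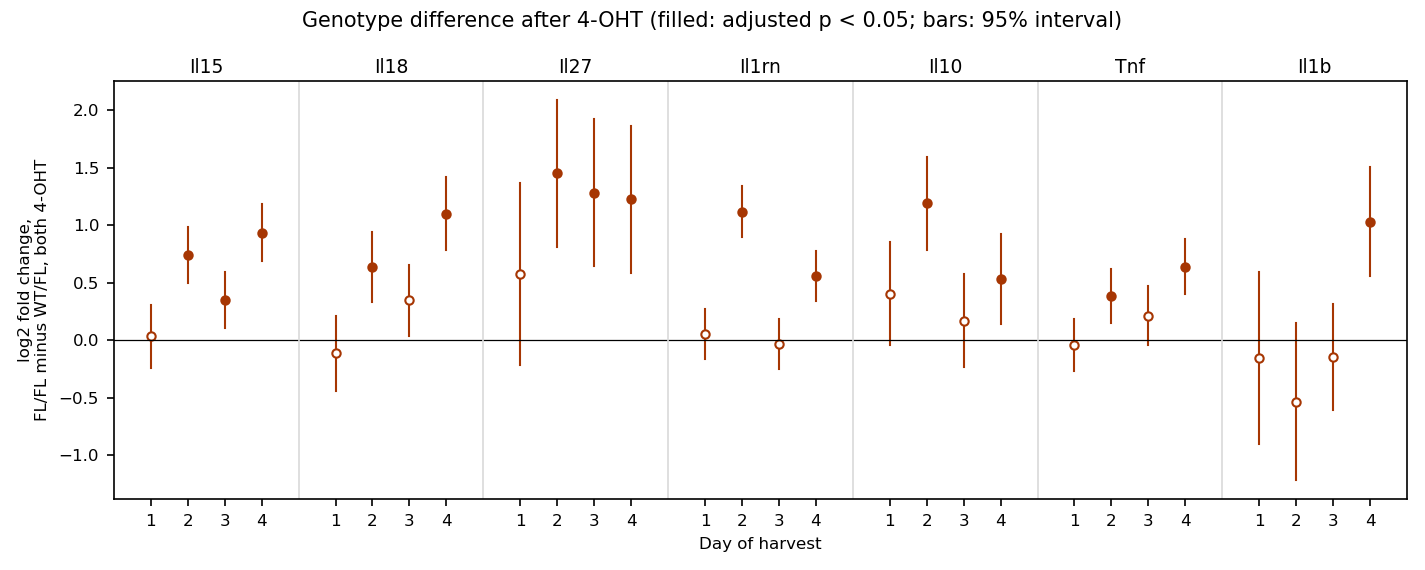
Genotype difference (log2 fold change, Trex1 FL/FL over Trex1 WT/FL) after 4-OHT for the 7 well-measured cytokines against the day of harvest, with 95% intervals and filled symbols for an edgeR adjusted p below 0.05. All symbols are open on day 1, Il27 stays between 1.23 and 1.45 from day 2 to day 4, and Il1rn and Il10 lie at -0.031 and 0.17 on day 3.

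The same libraries were read for reference genes of both pathways, listed with earlier results of these data known. All 10 interferon reporter genes (Irf7, Isg15, Usp18, Ifit1, Ifit3, Rsad2, Mx1, Oasl1, Ifi44 and Cxcl10) were called higher on days 2, 3 and 4, with a median log2 fold change of 1.92, 1.35 and 2.92. Of 10 NF-κB reporter genes, 3 were called upward on day 2 and 5 on day 4. Day 3 had 3 upward and 2 downward calls. Their median log2 fold changes were 0.21, 0.16 and 0.21 on days 2, 3 and 4. Of all tested genes, 12.6%, 19.0% and 30.2% were called in either direction on these days. From the NF-κB list, Ccl4 and Nfkbia were picked for naming after the data were seen. The chemokine Ccl4 rose by 1.84 on day 2 and 2.01 on day 4, while Nfkbia, the inhibitor of NF-κB that is itself a target, stood at -0.02 (edgeR adjusted p = 0.946) and -0.09 (0.403). In the marker sums, both neutrophil values of the Trex1 FL/FL libraries on day 4 (4.57 and 5.05 CPM) lay below those of the Trex1 WT/FL libraries (5.86 and 11.2 CPM), the macrophage sum was 26245 to 28254 against 31671 to 33691 CPM on day 2 and 38258 to 38735 against 45021 to 47292 CPM on day 3, and the dendritic cell sum was 1.17 to 1.95 against 2.30 to 2.38 CPM on day 3 and 0.720 to 1.45 against 1.53 to 1.98 CPM on day 4. The B cell sum was 4.26 to 4.27 against 4.31 to 4.76 CPM on day 2 and 4.33 to 4.39 against 4.69 to 6.26 CPM on day 3. On the other days from day 2 on, the sums of these 4 lists overlapped between the genotypes, as did the fibroblast sum on days 2, 3 and 4. Their part in the differences between genotypes was not tested.

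Several cytokines were higher after 4-OHT in Trex1 FL/FL BMDMs, where the agent and the loss of Trex1 cannot be told apart. Compared with untreated cells of the same genotype, 6 of 9 cytokines were higher on day 2 (16.4% of all genes called), 6 of 9 on day 3 (23.5%) and 7 of 9 on day 4 (29.6%), and none was lower. On day 4 Il27 rose 4.13-fold from 0.758 and 0.813 CPM (log2 fold change 2.05, SE 0.33, edgeR adjusted p = 1.50e-05) and Il1b 3.66-fold from 9.00 and 9.32 CPM (1.87, SE 0.24, edgeR adjusted p = 2.53e-06). On day 2 Il10 rose 2.88-fold from 3.08 and 2.67 CPM (1.52, SE 0.20, edgeR adjusted p = 1.96e-06) and Il1rn 2.67-fold from 16.8 and 13.2 CPM (1.42, SE 0.11, edgeR adjusted p = 2.23e-10). These untreated libraries did not overlap with the treated ones. Il15 rose by 0.93, 0.49 and 1.06 and Il18 by 0.88, 0.70 and 1.22 on the log2 scale on days 2, 3 and 4 (largest edgeR adjusted p = 0.00283 for Il15 and 0.00103 for Il18). Tnf rose by 0.56, 0.51 and 0.68, and its call on day 3 was lost without untreated library 1 (0.44, edgeR adjusted p = 0.0631). On day 3 Il27 rose by 1.13 (edgeR adjusted p = 0.00874), or by 0.99 (0.0981) without untreated library 1. Il1b rose by 0.69 (0.0293), or by 0.52 (0.237) without untreated library 1 and 0.26 (0.531) without treated library 2. Its call was also lost with no filter on low counts (0.70, 0.063) and with only the groups compared in the fit (0.71, 0.358).

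In Trex1 WT/FL BMDMs, 2 of the IL-1 family genes were higher after 4-OHT. The agent, Cre activity and the lower Trex1 RNA of these cells cannot be told apart here. Il1rn was 1.46-fold higher on day 3, at 31.8 and 33.0 CPM against 24.8 and 19.6 CPM untreated (log2 fold change 0.54, SE 0.11, edgeR adjusted p = 0.00916), and 1.62-fold higher on day 4, at 24.7 and 24.3 CPM against 15.5 and 14.7 CPM (0.70, SE 0.11, edgeR adjusted p = 0.00093). Il1b was 2.17-fold higher on day 4, at 16.8 and 15.9 CPM against 8.46 and 6.58 CPM (1.11, SE 0.24, edgeR adjusted p = 0.038). No other cytokine was called in these cells, where 0 of 9 passed on day 2 (4 at an unadjusted p below 0.05, and 0 with DESeq2), 1 of 9 on day 3 and 2 of 9 on day 4. Of all genes, 0.0983%, 0.537% and 0.472% were called on these days. The Il1rn call on day 3 was lost without untreated library 2 (0.38, edgeR adjusted p = 0.272), without treated library 2 (0.52, 0.142) and with only the groups compared in the fit (0.54, 0.146). The Il1b call on day 4 was lost without either untreated library (1.32, 0.114 and 0.95, 0.365) or either treated library (1.07, 0.21 and 1.15, 0.165), and with no filter on low counts (1.11, 0.0834).

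**Figure D3:**
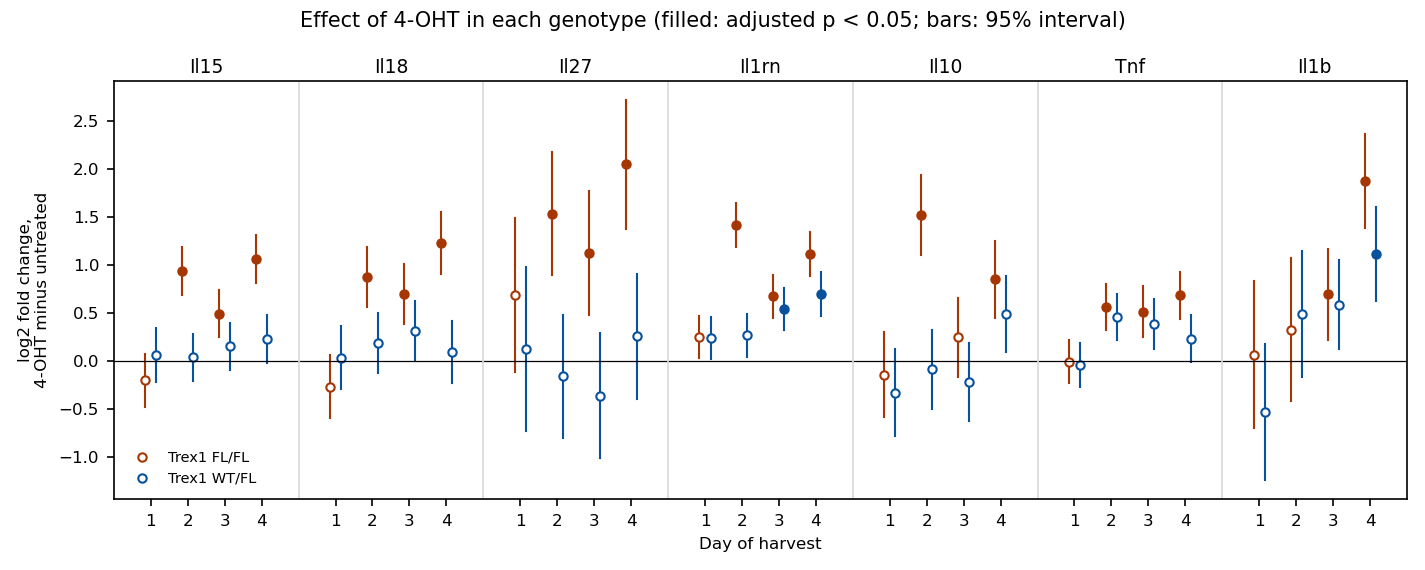
Log2 fold change between 4-OHT-treated and untreated BMDMs of each genotype for the 7 well-measured cytokines against the day of harvest, with 95% intervals and filled symbols for an edgeR adjusted p below 0.05. Filled symbols of Trex1 WT/FL cells occur for Il1rn on days 3 and 4 and for Il1b on day 4.

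The difference between both 4-OHT effects asks whether cytokines responded to 4-OHT differently in the 2 genotypes. It was called for 4 of 9 cytokines on day 2 (6.39% of all genes), for 1 of 9 on day 3 (8.94%) and for 3 of 9 on day 4 (16.2%), each time higher in Trex1 FL/FL. On day 2 these were Il27 (log2 difference 1.70, SE 0.44, edgeR adjusted p = 0.0156), Il10 (1.61, SE 0.28, 0.000329), Il1rn (1.15, SE 0.15, 1.21e-05) and Il15 (0.89, SE 0.17, 0.000733). Mean levels of untreated cells on day 2 were lower in Trex1 FL/FL than in Trex1 WT/FL for each of these genes. They were 2.88 against 3.84 CPM for Il10, 1.25 against 1.48 for Il27, 20.3 against 22.6 for Il15 and 15.0 against 15.3 for Il1rn. None of these gaps was called, and each enlarges the difference between both effects. On day 4 the called genes were the 3 interferon-linked genes, Il27 (1.79, SE 0.45, edgeR adjusted p = 0.00583), Il18 (1.13, SE 0.22, 0.000512) and Il15 (0.83, SE 0.17, 0.000867). Neither NF-κB-linked gene with sufficient counts was called. Tnf had differences of 0.10, 0.13 and 0.45 on days 2, 3 and 4 (edgeR adjusted p = 0.848, 0.771 and 0.0671) and Il1b had 0.76 on day 4 (95% interval 0.07 to 1.45, edgeR adjusted p = 0.139). The 95% intervals of Tnf ended at 0.44, 0.50 and 0.79 on days 2, 3 and 4. Differences up to these values remain possible for Tnf. Il18 on day 2 (0.69, edgeR adjusted p = 0.0506), Tnf on day 4 (0.45, 0.0671) and Il1rn on day 4 (0.42, 0.0671) missed the threshold narrowly.

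Several of these results depended on the fit. On day 4 DESeq2 called 5 cytokines, with Tnf (adjusted p = 0.0358) and Il1rn (0.0468) in addition, and the fit of only the groups compared added Tnf (edgeR adjusted p = 0.0131), Il1rn (0.0229) and Il1b (0.00329). Il18 on day 2 passed with DESeq2 (0.0278), with the fit of only the groups compared (0.033), with a minimum count of 50 (0.0448) and with no filter on low counts (0.0482). Without untreated Trex1 WT/FL library 2 or untreated Trex1 FL/FL library 1 its edgeR adjusted p was 0.0386 or 0.0284. Calls also appeared for Il15 on day 3 without treated Trex1 WT/FL library 2 (0.60, 0.0188), for Tnf on day 4 without untreated Trex1 WT/FL library 1 (0.56, 0.0412) and for Il1rn on day 4 without untreated Trex1 FL/FL library 2 (0.54, 0.0298). On day 3 Il27 was the called gene (1.49, SE 0.44, edgeR adjusted p = 0.0338), and no filter on low counts moved its adjusted p to 0.0665. Leaving out any of the 8 libraries but untreated Trex1 WT/FL library 1 ended this call, with differences of 1.23 to 1.64 and edgeR adjusted p of up to 0.16. For Il27 on day 2 the call ended without untreated Trex1 WT/FL library 2 (1.57, 0.0774), treated Trex1 WT/FL library 2 (1.49, 0.108), untreated Trex1 FL/FL library 1 (1.58, 0.0752) or treated Trex1 FL/FL library 1 (1.43, 0.113).

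Without 4-OHT no cytokine was called as different between the genotypes. Of 9 tested, 0 were called on each day by edgeR and by DESeq2, with 2 at an unadjusted p below 0.05 on days 1 and 2 and 0 on days 3 and 4, when 0%, 0.0197%, 0% and 2.01% of all genes were called on days 1, 2, 3 and 4. On day 4 untreated Trex1 FL/FL and Trex1 WT/FL libraries stood at 23.6 and 24.1 against 19.3 and 22.6 CPM for Tnf, at 19.0 and 19.2 against 16.3 and 19.3 CPM for Il15, and at 0.758 and 0.813 against 1.18 and 1.14 CPM for Il27. Their log2 differences were 0.19 (95% interval -0.06 to 0.43) for Tnf, 0.11 (-0.14 to 0.36) for Il15 and -0.56 (-1.24 to 0.12) for Il27. For Il27 both untreated Trex1 FL/FL libraries were below both controls, which is the opposite order to that after 4-OHT. Il6, near the limit of detection, had 6 and 8 counts in untreated Trex1 FL/FL against 1 and 1 in untreated Trex1 WT/FL libraries on day 2. On day 4 the order was the opposite, with 3 and 3 against 20 and 5 counts.

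The cytokines also changed with time in all cells. From day 1 to day 2, Il15, Il18 and Il27 rose in all 4 combinations of genotype and treatment, and Tnf fell. In untreated Trex1 WT/FL BMDMs, Il15 rose from 6.07 and 5.59 CPM to 22.9 and 22.2 CPM (log2 change 1.95), Il18 from 4.82 and 4.60 CPM to 11.3 and 9.31 CPM (1.13), and Il27 from 0.139 and 0.316 CPM to 1.36 and 1.61 CPM (2.70). Tnf fell from 74.2 and 84.9 CPM to 21.3 and 26.8 CPM (-1.73). After 4-OHT in Trex1 FL/FL cells the rises were 2.64 for Il15, 2.03 for Il18 and 3.29 for Il27, and Tnf, at 76.7 and 73.9 CPM on day 1, fell by 0.81 on the log2 scale. The largest edgeR adjusted p of these 4 genes over the 4 combinations was 2.53e-05, for Il18. Il1rn fell in the 3 control groups by 0.61 to 0.70 and rose by 0.46 in 4-OHT-treated Trex1 FL/FL cells. The number of called cytokines was 7 of 9 in untreated and 7 of 9 in 4-OHT-treated Trex1 WT/FL BMDMs and 5 and 6 of 9 in untreated and 4-OHT-treated Trex1 FL/FL BMDMs, when 47.4%, 47.6%, 47.6% and 50.2% of all genes changed.

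From day 2 to day 3, Il1b rose in all 4 combinations. It rose from 1.55 and 1.21 CPM to 27.2 and 21.9 CPM in untreated Trex1 WT/FL cells (log2 change 4.14) and from 0.990 and 1.72 CPM to 24.7 and 41.8 CPM in 4-OHT-treated Trex1 FL/FL cells (4.63), with 4.24 and 4.27 in the other two (largest edgeR adjusted p = 1.42e-10). Tnf fell further in all 4, by 1.30 to 1.54 (4.76e-09). Il1rn rose in the 3 control groups by 0.40 to 0.81 and fell by 0.34 in Trex1 FL/FL cells exposed to 4-OHT. Il10 fell there as well, by 0.72. Called were 4 of 9 cytokines in each of the untreated and the 4-OHT-treated Trex1 WT/FL cells, 6 of 9 in untreated Trex1 FL/FL cells and 4 of 9 in those exposed to 4-OHT, when 45.0%, 46.3%, 47.1% and 43.2% of all genes changed. Il1a, with 0 and 0 counts in untreated Trex1 WT/FL and 2 and 1 counts in untreated Trex1 FL/FL cells on day 2, was at least 3.81-fold and at least 7.25-fold higher on day 3, measured against 3 counts per library.

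From day 3 to day 4, Il15 and Il18 fell in the 3 control groups and not in Trex1 FL/FL cells exposed to 4-OHT. The falls were 0.49 to 0.58 for Il15 and 0.69 to 0.92 for Il18 on the log2 scale, while 4-OHT-treated Trex1 FL/FL cells had 0.079 for Il15 (95% interval -0.16 to 0.32, edgeR adjusted p = 0.736) and -0.16 for Il18 (-0.47 to 0.15, 0.538). Il1b also fell in the controls, by 1.17 to 1.70, and changed by 0.0062 with 4-OHT in Trex1 FL/FL cells (95% interval -0.46 to 0.47). Tnf rose in all 4 combinations by 0.95 to 1.37. Called were 5, 6, 5 and 2 of 9 cytokines in untreated Trex1 WT/FL, 4-OHT-treated Trex1 WT/FL, untreated Trex1 FL/FL and 4-OHT-treated Trex1 FL/FL cells, when 20.0%, 19.6%, 21.8% and 15.7% of all genes changed.

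Of the 58 calls between days that involve no group at the detection limit, 11 lost significance when a library was left out. They concern Il15 in 4-OHT-treated Trex1 WT/FL cells from day 2 to day 3 (0.21 without day 2 library 2 and 0.09 without day 3 library 2) and from day 3 to day 4 (-0.25 without day 3 library 2 and -0.43 without day 4 library 1). In untreated Trex1 FL/FL cells, Il15 from day 2 to day 3 stood at 0.33 without day 2 library 1 and at 0.36 without day 3 library 1. The fall of Il18 in untreated Trex1 WT/FL cells from day 3 to day 4 was -0.53 without day 4 library 1. For Il1b it was the rise in 4-OHT-treated Trex1 WT/FL cells from day 1 to day 2 (0.65 without day 1 library 2 and 0.79 without day 2 library 1). Il1rn lost its call in 4-OHT-treated Trex1 WT/FL cells from day 3 to day 4 (-0.37 without day 3 library 2), in untreated Trex1 FL/FL cells from day 2 to day 3 (0.24 without day 2 library 2) and in 4-OHT-treated Trex1 FL/FL cells from day 2 to day 3 (-0.31 without day 2 library 2 and -0.29 without day 3 library 2). The fall of Il10 in 4-OHT-treated Trex1 FL/FL cells from day 2 to day 3 was -0.55 without day 3 library 2, and its 2 later rises in untreated Trex1 FL/FL cells were not called without day 2 library 2 (0.45), either day 3 library (0.55 to 0.57) or either day 4 library (0.49 and 0.63). The edgeR adjusted p of these values lay between 0.0583 and 0.642. With only the groups compared in the fit, both of these changes of Il15 in 4-OHT-treated Trex1 WT/FL cells (0.32, edgeR adjusted p = 0.251, and -0.51, 0.119) and the change of Il10 in untreated Trex1 FL/FL cells from day 2 to day 3 (0.52, 0.052) were not called.

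The genotype difference after 4-OHT itself changed between days. From day 1 to day 2 it grew for 3 of 9 cytokines (5.31% of all genes), Il1rn by 1.06 (SE 0.15, edgeR adjusted p = 3.73e-05), Il18 by 0.75 (SE 0.22, 0.041) and Il15 by 0.71 (SE 0.18, 0.0155) on the log2 scale. From day 2 to day 3 it shrank for 2 of 9 (2.72% of all genes), Il1rn by -1.15 (SE 0.15, edgeR adjusted p = 5.12e-05) and Il10 by -1.02 (SE 0.28, 0.046). From day 3 to day 4 it grew again for 4 of 9 (7.08% of all genes), Il1b by 1.18 (SE 0.32, edgeR adjusted p = 0.0258), Il18 by 0.75 (SE 0.21, 0.0291), Il1rn by 0.59 (SE 0.15, 0.0135) and Il15 by 0.59 (SE 0.17, 0.0301). The difference of Tnf changed by 0.42, -0.17 and 0.43 and was not called in any interval. Il27, with changes of 0.88, -0.17 and -0.06, was not called either. The changes of Il1rn into days 2 and 3 kept their call whichever library was left out, and the other 7 lost it without at least 1 library.

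For Il10 from day 2 to day 3, leaving out any of the 8 libraries ended the call, with values of -1.20 to -0.84 and edgeR adjusted p of 0.0555 to 0.205. Il18 from day 1 to day 2 kept its call only without library 2 of day 1 of the Trex1 FL/FL cells, and stood at 0.56 (0.265) without library 1 of that group. Il15 from day 1 to day 2 lost its call without library 2 of any of the 4 groups (0.58 to 0.69, 0.0573 to 0.136). From day 3 to day 4, Il1rn lost its call without day 3 library 2 of either genotype (0.56 and 0.54, 0.0532 and 0.0766). Il15 lost it without day 3 library 2 (0.33, 0.313) or day 4 library 1 (0.51, 0.151) of the Trex1 WT/FL cells and without either day 3 library (0.63, 0.0505 and 0.54, 0.132) or day 4 library 1 (0.48, 0.187) of the Trex1 FL/FL cells. Il18 lost it without the same 5 libraries (0.61 to 0.79, 0.0583 to 0.161) and without day 4 library 2 of the Trex1 FL/FL cells (0.76, 0.0592). Il1b lost it without day 3 library 1 (1.08, 0.0991) or either day 4 library (1.22, 0.0765 and 1.14, 0.0865) of the Trex1 WT/FL cells and without library 1 of day 3 (0.85, 0.108) or day 4 (1.05, 0.125) of the Trex1 FL/FL cells. With upper-quartile factors, the changes of Il18 into day 2 (0.72, 0.0557) and of Il10 into day 3 (-0.998, 0.052) were not called. With only the groups compared in the fit, those of Il1b (1.19, 0.192) and Il15 (0.61, 0.211) into day 4 were not called, nor was that of Il1b with no filter on low counts (1.18, 0.0595). In these sentences the log2 value is followed by its edgeR adjusted p.

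Balances between cytokines and their inhibitors were compared within each library, per transcript length. Il1b and its antagonist Il1rn exchanged rank with time. The ratio of Il1rn to Il1b was 8.71 to 23.0 on day 1 and 0.403 to 0.725 on day 3 over the 8 libraries of each day. On day 2 it was 13.0 and 21.8 in Trex1 FL/FL against 4.29 and 6.30 in Trex1 WT/FL libraries exposed to 4-OHT, and on day 4 it was 0.546 and 0.645 against 0.805 and 0.839, so that the order of the genotypes was the opposite. Il18bp, a secreted inhibitor of IL-18, rose over Il18 with time. Its ratio to Il18 was 6.07 and 6.17 against 4.19 and 4.86 on day 4, above the controls, although Il18 was higher too. These ratios are given as a description and were not tested.

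Around the cytokines, receptors, partners, processing enzymes, inhibitors and transcription factors were examined as a list of 40 genes, of which 36 were tested. In the genotype difference after 4-OHT, the calls on day 2 were 14 upward and 2 downward. Day 3 had 8 upward and 6 downward calls, and day 4 again 14 upward and 2 downward. Over all genes 12.6%, 19.0% and 30.2% were called in either direction on days 2, 3 and 4. On day 1 there were 0, also with no call among the 10 interferon reporter genes. Among the receptors, Il12rb1, shared by IL-12 and IL-23, had the largest increase on day 4 (log2 fold change 2.34, SE 0.33, edgeR adjusted p = 2.35e-06), at 5.01 and 3.90 CPM against 0.827 and 0.929 CPM. Il15ra, which presents IL-15 to other cells, rose by 1.13 on day 2 (SE 0.20, edgeR adjusted p = 0.00012), from 6.64 and 6.08 CPM to 14.1 and 13.8 CPM. The IL-27 receptor gene Il27ra was lower on day 4 (-1.77, SE 0.38, edgeR adjusted p = 0.00067), at 0.471 and 0.575 CPM against 1.99 and 1.58 CPM, with 17 to 19 counts in the Trex1 FL/FL libraries.

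The remaining named genes of this list belonged to inhibitors, processing and transcription. Socs1, a feedback inhibitor of cytokine receptors, was higher by 1.69 on day 2 (SE 0.32, edgeR adjusted p = 0.000484) and 1.80 on day 4 (SE 0.33, 0.00016). Il18bp was higher by 1.41, 1.04 and 1.53 on days 2, 3 and 4 and reached 106 and 102 CPM on day 4 against 30.8 and 41.5 CPM. Irf1, a transcription factor induced by interferon, was higher by 0.78 on day 2 (edgeR adjusted p = 4.38e-10). Of the genes listed for processing and release, Casp4 was higher by 0.45 on day 3 and 1.18 on day 4. Casp1 was higher by 0.41 on day 3 (largest edgeR adjusted p of both genes = 0.000321). Nlrp3, the sensor of the inflammasome, was lower by -0.46 on day 3 (0.000179). In Trex1 WT/FL cells it was also lower after 4-OHT than untreated, by -1.18, -1.43 and -1.21 on days 2, 3 and 4 (largest edgeR adjusted p = 1.03e-09), and in Trex1 FL/FL cells by -1.48, -1.89 and -1.33. Ebi3, which pairs with the p28 subunit in IL-27, was the tested partner subunit and was not called on any day, at 124 and 134 CPM against 107 and 118 CPM on day 4.

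**Figure D4:**
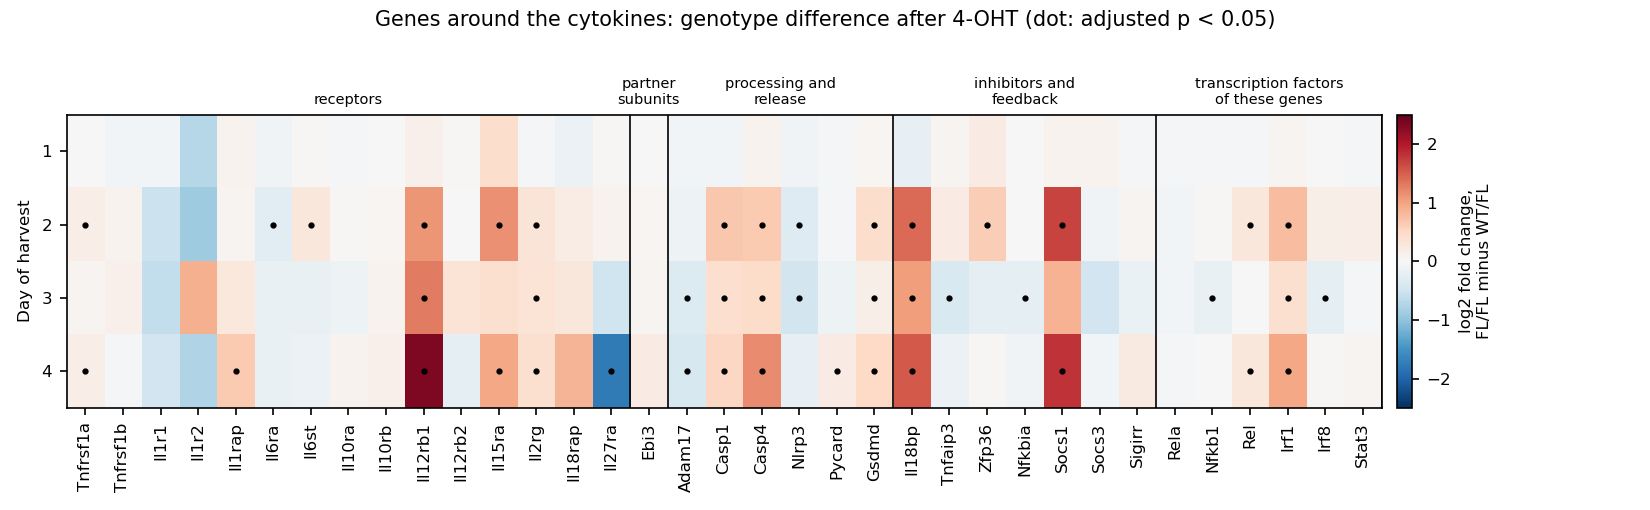
Genotype difference (log2 fold change, Trex1 FL/FL over Trex1 WT/FL) after 4-OHT, shown by colour, for the tested genes around the cytokines that are reported here, by day of harvest, with dots at an edgeR adjusted p below 0.05. Day 1 has no dots, the darkest red is Il12rb1 on day 4 (2.34) and the darkest blue is Il27ra on day 4 (-1.77).

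The patterns over the 32 libraries were compared after the mean of the 8 libraries of a day was subtracted from the log2 CPM. Pearson's r was 0.91 between Il15 and Il18, 0.82 between Il15 and Il27 and 0.82 between Il15 and Il1rn. Tnf and Il1rn gave 0.83, whereas Tnf and Il1b gave 0.53. The genes nearest to Il15 were Uba7, Or2v1 and Ifi203 (0.96, 0.96 and 0.95), those nearest to Il18 were Sp110, AW112010 and Sp100 (0.95 each), and those nearest to Il27 were Tcirg1, Ifi206 and Cmtr1 (0.90, 0.88 and 0.87). For Il10 they were Nod1, Ifi213 and Gbp7 (0.85, 0.84 and 0.84), and for Il1rn C3, Daam1 and Clic4 (0.92 each). Nearest to Tnf were Rasgef1b, Ccl7 and Glrx (0.91, 0.90 and 0.90) and to Il1b Pirb, Abcb1b and Sipa1l1 (0.81, 0.79 and 0.78). At their low counts, Il1a (Wsb2, Fcgr2b and Fabp5, 0.66 to 0.61) and Il6 (Gm30881, Ttll11 and Taf1a, 0.65 to 0.63) had no close neighbour. These values describe 32 libraries that share their treatments and genotypes, and no test was made of them.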

How the data were processed

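RNA of 32 BMDM libraries, 2 for each combination of 2 genotypes, 2 treatments and 4 days, was sequenced from libraries made with Illumina protocols. The authors demultiplexed with JE, checked reads with FastQC 11.9, quantified transcripts with Salmon and summed them with tximport, naming GRCm39, which gave estimated counts. The deposited table holds these as whole numbers for each gene, not normalized. The annotation release is not given in the sources used here. Of 54281 identifiers, 51048 matched GENCODE vM39, the source of symbols and positions. Unmatched identifiers held 0.32% of all counts.

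The test was that of edgeR 4.0.16 under R 4.3.3 (TMM factors, filter with a minimum count of 10, robust quasi-likelihood fit with 16 group means and 16 residual degrees of freedom). Calls needed a Benjamini-Hochberg adjusted p below 0.05 over all 15257 tested genes. SE is the standard error of a log2 fold change. Log2 CPM used a prior count of 2 and edgeR fold changes one of 0.125. The test was also run on simulated data, the outcome of which is not given here. Each library counted as 1 sample. Replicates of a group differed by more than sampling noise (chi-square per degree of freedom 9.07 to 49.0), which does not show whether they are independent cultures. The median total was 44841991 counts, and totals limit the precision of genes with few counts.

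Groups came from the labels, which give no replicate number, and no pairing was used. The members, their classes, the lists of 40 pathway genes, reporter genes and markers, and the tests were chosen with earlier results of these data known. 1 gene of the pathway list enters its counts but is not reported here by name. Named are all 10 cytokines, Trex1, the pathway genes called in the genotype difference after 4-OHT (at most the 6 of largest absolute change a day), and the 3 genes nearest in pattern to each tested cytokine. The reporter genes Ccl4 and Nfkbia, the subunit Ebi3 and the TATA box motif were added after the data were seen. The alternatives tried were DESeq2 1.42.0, factors by RLE or upper quartile, no filter, a minimum count of 50, fits of only the groups compared, stricter thresholds (adjusted p below 0.01 and absolute log2 fold change above 1.5), and leaving out each library. A left-out fit leaves 1 library in a group, which is assumed to vary like the other groups.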

Additional observations from a re-analysis of the deposited data

Results flagged for a closer look

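The 4-OHT effect differed between the genotypes, by an interaction term in edgeR, for 8 combinations of cytokine and day. The differences on the log2 scale, with the edgeR adjusted p in parentheses, were 1.15 for Il1rn (1.21e-05), 1.61 for Il10 (0.000329), 0.89 for Il15 (0.000733) and 1.70 for Il27 (0.0156) on day 2. They were 1.49 for Il27 (0.0338) on day 3 and 0.83 for Il15 (0.000867), 1.13 for Il18 (0.000512) and 1.79 for Il27 (0.00583) on day 4.

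The genotype difference after 4-OHT changed between consecutive days for 9 combinations, tested in the same way. Into day 2 it grew by 1.06 for Il1rn (3.73e-05), 0.71 for Il15 (0.0155) and 0.75 for Il18 (0.041). Into day 3 it changed by -1.15 for Il1rn (5.12e-05) and -1.02 for Il10 (0.046), and into day 4 it grew by 1.18 for Il1b (0.0258), 0.59 for Il1rn (0.0135), 0.59 for Il15 (0.0301) and 0.75 for Il18 (0.0291).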

How the results depend on the processing

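Over all days, edgeR called 15 cytokine differences between genotypes after 4-OHT, 19 effects of 4-OHT in Trex1 FL/FL BMDMs and 3 in controls, 0 differences without 4-OHT, 8 interactions, 61 changes between days and 9 changes of the genotype difference. At a threshold of 0.01 and a log2 fold change beyond 1.5 in size, these became 0, 4, 0, 0, 2, 17 and 0. Fits of only the groups compared gave 13, 18, 2, 0, 12, 59 and 8, and DESeq2 gave 15, 19, 3, 0, 11, 62 and 9. RLE and upper-quartile factors, no filter and a minimum count of 50 moved none of the 7 counts by over 1.5 times. Leaving out each library gave 13 to 15, 16 to 19, 2 to 4, 0 to 0, 7 to 9, 57 to 62 and 5 to 9. The lowest count of 5 came without library 2 of 4-OHT-treated Trex1 WT/FL cells on day 3 and without either 4-OHT-treated Trex1 FL/FL library of day 3. Of 131 single results, 131 kept direction and call with RLE factors, 129 with upper-quartile factors and 128 with DESeq2. In 644 refits without 1 library, 535 kept both and 92 lost the call.

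Direction turned in 12 refits of results that were not called. The ranges over left-out libraries were, for the interaction, -0.10 to 0.34 (Tnf, day 2), -0.60 to 0.20 (Il1b, day 2), -0.33 to 0.43 (Il1b, day 3) and -0.047 to 0.29 (Il1rn, day 3), and for the genotype difference on day 3, -0.58 to 0.18 (Il1b), -0.075 to 0.015 (Il1rn) and -0.014 to 0.35 (Il10). The cause was not tested. Scaling moved the median of all genes by at most 0.0748. No paired analysis was possible because neither labels nor columns carry replicate numbers. Depth limited Il1a, Il6 and Il12b, and without a filter Il12b gave 0 calls in 35 comparisons (1 at an unadjusted p below 0.05).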
